A study of Mus musculus with 7 samples.

Results

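The Fc receptor and ITAM signalling genes described here are Fcgr1, Fcgr2b, Fcgr3, Fcgr4, Fcgrt, Fcer1g, Tyrobp and Syk. They were chosen by name, and every probe set whose only gene symbol is one of these 8 was taken, which gave 16 of the 45101 probe sets and 8 of the 18193 genes on the array. Expression was measured on Affymetrix mouse arrays in macrophages isolated by their GFP and F4/80 signals after enzymatic digestion of the brain. There were 3 arrays from normal brain of C57/Bl6 mice aged 8 weeks and 4 from GL261 tumours, an intracranial mouse glioma taken at day 21 from C57/Bl6 animals given marrow that carried GFP. The labels give no marrow graft for the normal brain mice and no age for the tumour-bearing ones, and they do not tie arrays to separate animals, so every p-value measures the spread between these arrays alone.

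Fc receptors bind the constant part of antibodies. On mouse macrophages Fcgr1, Fcgr3 and Fcgr4 are the activating IgG receptors. They signal through the common gamma chain encoded by Fcer1g, which carries an ITAM, an immunoreceptor tyrosine-based activation motif. Tyrobp, also called DAP12, carries an ITAM for another set of receptors, among them Trem2. Src-family kinases phosphorylate the ITAM, the kinase Syk docks there and starts the signal that leads to phagocytosis and cytokine release. Fcgr2b is the inhibitory IgG receptor and carries an ITIM, the inhibitory counterpart, which recruits phosphatases. Fcgrt encodes the neonatal Fc receptor FcRn, which pairs with beta-2-microglobulin and returns IgG and albumin from endosomes to the cell surface.

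All 8 genes were above background on all 7 arrays, where background was the 95th percentile of 27 bacterial control probe sets on each array. The median signal per array was 49.5 to 73.0 in normal brain and 50.9 to 65.0 in GL261. Gapdh signal at the 3' end over that at the 5' end, a sign of RNA integrity, was 2.39 to 2.43 in normal brain and 1.64 to 1.89 in GL261 (two-sided exact permutation p = 0.0286, the smallest that 35 splits allow). The same ratio for actin was 1.43 to 1.64 and 1.36 to 1.52, with overlapping groups (exact permutation p = 0.143). Of 16 general macrophage markers 1, Mertk, was called higher and 0 lower. Of 8 tested homeostatic microglia markers 7 were called lower (summed signal of the list 36579 to 43130 in normal brain and 18206 to 25241 in GL261). The sort marker Adgre1, which encodes F4/80, was at signals of 7395 to 8758 in normal brain and 5965 to 6716 in GL261 and, although the groups did not overlap, was not called (log2 change -0.39, standard error 0.13, adjusted p = 0.0814). Here log2 change stands for GL261 minus normal brain on the log2(signal + 6) scale, and called for a limma p under 0.05 after Benjamini-Hochberg adjustment over all genes tested. The macrophage growth factor receptor gene Csf1r (-0.28, adjusted p = 0.394) and the lysosomal marker Cd68 (0.047, adjusted p = 0.882), whose sign turned without normal brain replicate 1 or GL261 replicate 3 or 4, were not called. Markers of other cell types were also compared: 6 of 9 tested neutrophil genes were lower (summed signal of the list 41299 to 52535 in normal brain and 17664 to 23747 in GL261), as were 7 of 8 B and plasma cell genes (9333 to 12466 and 3539 to 4595). Of 9 NK cell genes 3 were higher and 1 lower (9693 to 13044 and 10586 to 17476), and of 8 monocyte genes 3 were higher and 1 lower (21394 to 25594 and 23313 to 32745). Of 7 dendritic cell genes 1 was lower (19419.5 to 22126 and 9585 to 15545), and of 7 mast cell and basophil genes 0 were called, with 4 lower at an unadjusted p under 0.05 (1647 to 2734 and 996 to 2175). Of 7 T cell genes 2, Cd8a and Cd8b1, were higher (1151 to 2738 and 2518 to 4392). Of 6 tested oligodendrocyte precursor and glioma-type genes 4 were higher (251 to 635 and 979 to 1714), and of 6 endothelial genes 3 were lower (2493 to 3465 and 453 to 1819). The leukocytes among these cell types also carry Fc receptors or ITAM adaptors. None of the markers listed was at background on all 7 arrays, and the part of all these cell types and of the RNA measure in the results was not tested. In sorted bulk RNA fewer cells of a type and less RNA per cell cannot be told apart.

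Of the 8 genes, Fcgr4 alone was called higher in GL261 and limma called 0 lower. At an unadjusted p under 0.05, 2 were higher, Fcgr4 and Fcgr2b, and 0 lower, beside 1842 higher and 1326 lower among all 12125 genes tested. Over all 12125 genes tested, 5.92% were called higher, 4.20% lower and 10.1% in either direction. Arrays of normal brain and GL261 were fully separated for Fcgr1 and Fcgr4, 2 of the 8, against 23.4% of all tested genes. The median log2 change of the 8 was 0.23, beside 0.038 over all tested genes. Over all genes, 1227 were called, and 542, 722 and 730 without GL261 replicates 3, 1 and 4.

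**Figure D1:**
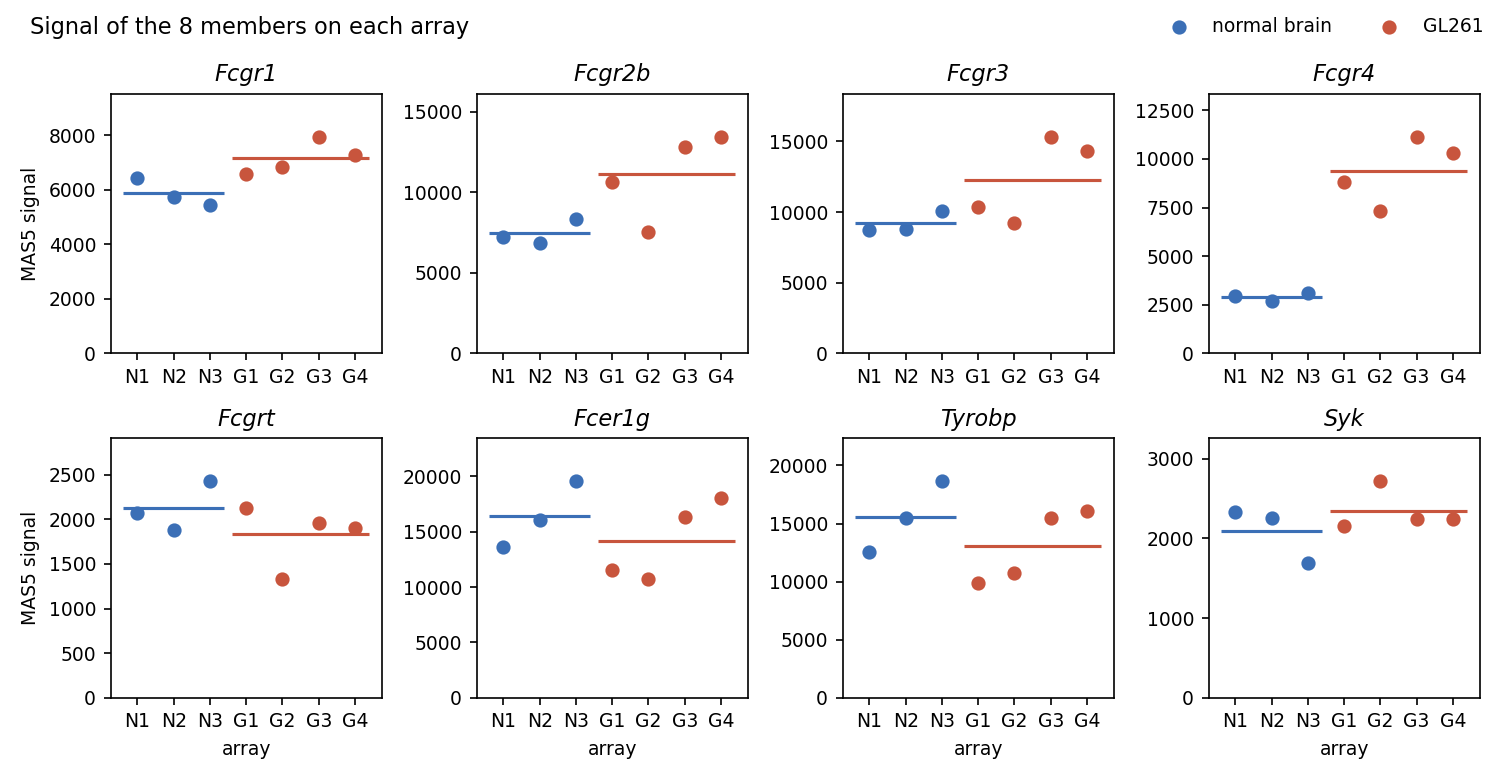
MAS5 signal (vertical axes, each from 0) of the probe set that represents each gene, on the 3 normal brain arrays (N1 to N3, blue) and the 4 GL261 arrays (G1 to G4, orange), with the group means as lines. Fcgr4 lies between 2699 and 3100.5 in normal brain and between 7333 and 11139 in GL261, while the groups of Fcgr2b, Fcgr3, Fcgrt, Fcer1g, Tyrobp and Syk overlap.

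Fcgr4 encodes an activating receptor for IgG2 subclasses and is found on monocytes, macrophages and neutrophils. In order of replicate number its signal was 2949, 2699 and 3100.5 on the normal brain arrays, and the GL261 arrays read 8809, 7333, 11139 and 10319. Every GL261 array was thus above every normal brain array, and GL261 replicate 2 had the lowest of the tumour values. The log2 level was 11.51 ± 0.10 (SD, n = 3) in normal brain, and GL261 reached 13.18 ± 0.27 (SD, n = 4). Fcgr4 was 3.18-fold higher in GL261 (log2 change 1.67, standard error 0.16, adjusted p = 0.000224, limma). The call was kept in all 17 alternative settings, in which the log2 change was 1.58 to 1.78 and the adjusted p 7.72e-06 to 0.0113. Of the marker lists of these cells, 3 of 8 monocyte genes were higher (Chil3, F10 and Fn1) and 1 lower (Ccr2), with a median log2 change of 0.58, and 6 of 9 neutrophil genes were lower, with a median of -1.01. Of 16 general macrophage genes 1 was higher and 0 lower, with a median of -0.19. Of 8 tested homeostatic microglia genes 7 were lower, with a median of -0.93. The part of these cells in the Fcgr4 result was not tested.

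The genes whose mean-centred values over the 7 arrays were most like those of Fcgr4, by the root mean square difference, were Cst7 and Nampt. Cst7, which encodes the protease inhibitor cystatin F, differed from Fcgr4 by 0.12 and had a log2 change of 1.83 (standard error 0.33, adjusted p = 0.00648). Nampt, the enzyme that makes a precursor of NAD, differed by 0.16 and rose by 1.49 (log2 change, standard error 0.15, adjusted p = 0.000275). The nearest other gene of the set was Fcgr2b at 0.57, and 769 other genes were nearer than it. All these genes share the same 7 arrays, and likeness is given here without a test. Fcgr2b and Fcgr3 were each the nearest of the set to the other, at 0.13, with 11 genes nearer to Fcgr2b and 48 nearer to Fcgr3.

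**Figure D2:**
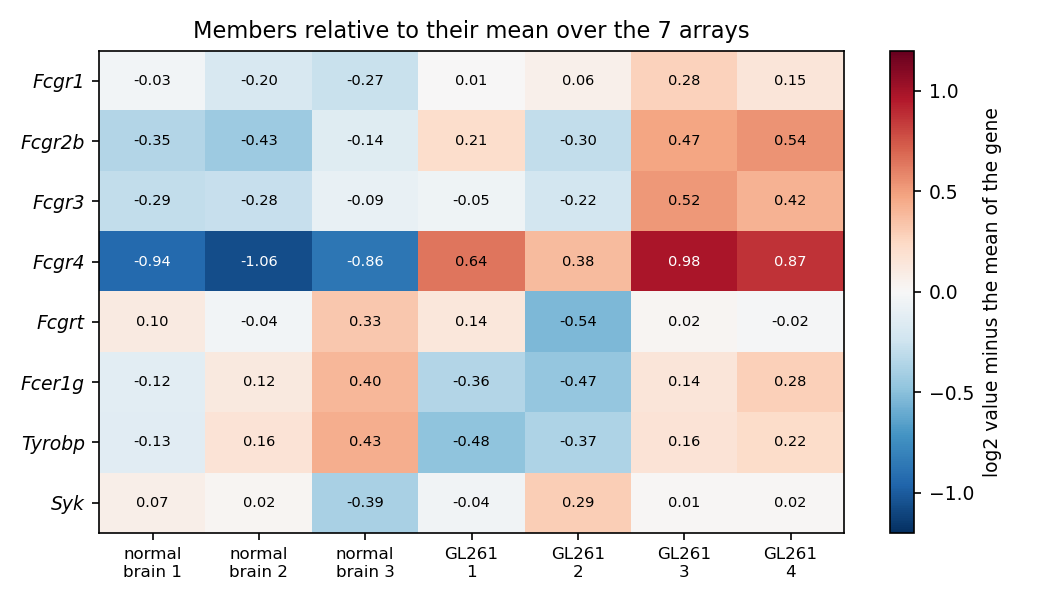
Log2 value of each gene on each array minus the mean of that gene over the 7 arrays, shown by colour and number. The row of Fcgr4 runs from -1.06 in normal brain replicate 2 to 0.98 in GL261 replicate 3, and the rows of Fcer1g and Tyrobp carry like values on every array.

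Fcgr1 encodes the high-affinity receptor for monomeric IgG. Its signal was 6413, 5719.8 and 5450.1 in the normal brain replicates and 6584, 6848, 7941 and 7259 in the GL261 replicates. The lowest GL261 value lay just above the highest normal brain value, so the groups did not overlap. The log2 change of 0.29 was not called (standard error 0.14, 95% confidence interval -0.0086 to 0.58, adjusted p = 0.204), but under quantile normalization it was 0.40 and was called (adjusted p = 0.0359). A further probe set, 1436625_at, was at 1276 to 1373 in normal brain and at 1790.2, 1796, 1594 and 736 in GL261 replicates 1 to 4, which gave 0.086 as log2 change (standard error 0.29, adjusted p = 0.900). Here GL261 replicate 4 was below and the other tumour arrays were above all normal brain arrays. Without GL261 replicate 4 the value was 0.39, and it was negative without replicate 1 or 2, at lowest -0.035.

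Fcgr3 encodes a low-affinity activating receptor for IgG complexes. Its signal was 8746, 8831 and 10066 in normal brain and 10331, 9219.9, 15329.6 and 14301 in GL261. GL261 replicates 3 and 4 stood above the rest, while replicate 2 lay within the normal brain range. The log2 change was 0.39 (standard error 0.19, interval -0.024 to 0.80, adjusted p = 0.218), which was not called. Under quantile normalization it was 0.61 and was called (adjusted p = 0.000461).

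Fcgr2b, the inhibitory receptor, had 5 probe sets, of which 4 were tested and 1 was called. The one that represents the gene, 1435476_a_at, was at 7245, 6823 and 8348 in normal brain and at 10648, 7512, 12812 and 13445 in GL261. Replicate 2 was the tumour array inside the normal brain range. The log2 change of 0.54 was not called (standard error 0.20, interval 0.11 to 0.97, adjusted p = 0.103), but without GL261 replicate 2 it was 0.72 and was called (adjusted p = 0.0198), as it was at 0.72 under quantile normalization (adjusted p = 0.00454). Probe set 1451941_a_at was at 2466, 2039 and 2705 in normal brain and at 5641, 4343, 8295 and 8527 in GL261. Here every tumour array was above every normal brain array, and in the fit over all 27022 tested probe sets it rose by 1.43 (log2 change, standard error 0.23, adjusted p = 0.00689). That call was lost when variances were shrunk to one common value (adjusted p = 0.0732).

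Of the 15 probe sets tested over the 8 genes, this one and that of Fcgr4 were called higher, beside 2.98% of all tested probe sets. Of the 15, limma called 0 lower, beside 2.47% of all tested probe sets called lower and 5.45% called in either direction. At an unadjusted limma p under 0.05, 0 of the 15 were lower. Higher by the same limma threshold were the called probe sets and, of Fcgr2b, 1435476_a_at and 1455332_x_at. The share over all tested probe sets at that threshold was not counted. Without GL261 replicate 2, 4 were called higher, and under quantile normalization 7 were. Groups did not overlap for 3 of the 15, against 20.3% of all tested probe sets. The 2 remaining tested probe sets of Fcgr2b, 1435477_s_at and 1455332_x_at, had log2 changes of 0.41 (standard error 0.21, adjusted p = 0.284) and 0.61 (standard error 0.21, adjusted p = 0.112). Within an array, 1451941_a_at minus 1435476_a_at was -1.74 to -1.55 in normal brain and -0.92 to -0.63 in GL261, a difference between the groups of 0.89 that was chosen after its values were seen and has no test. The same difference for 1435477_s_at was -0.083 to 0.053 and -0.30 to -0.025, a difference between the groups of -0.13. The fifth probe set, 1447622_at, was at background on all 7 arrays (signals 0.83 to 14.7) and was not tested. In the naming of the array maker, "s" and "x" probe sets can pick up other transcripts, and Fcgr2b and Fcgr3 share much of their extracellular sequence, so signals of these probe sets may not belong to Fcgr2b alone.

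**Figure D3:**
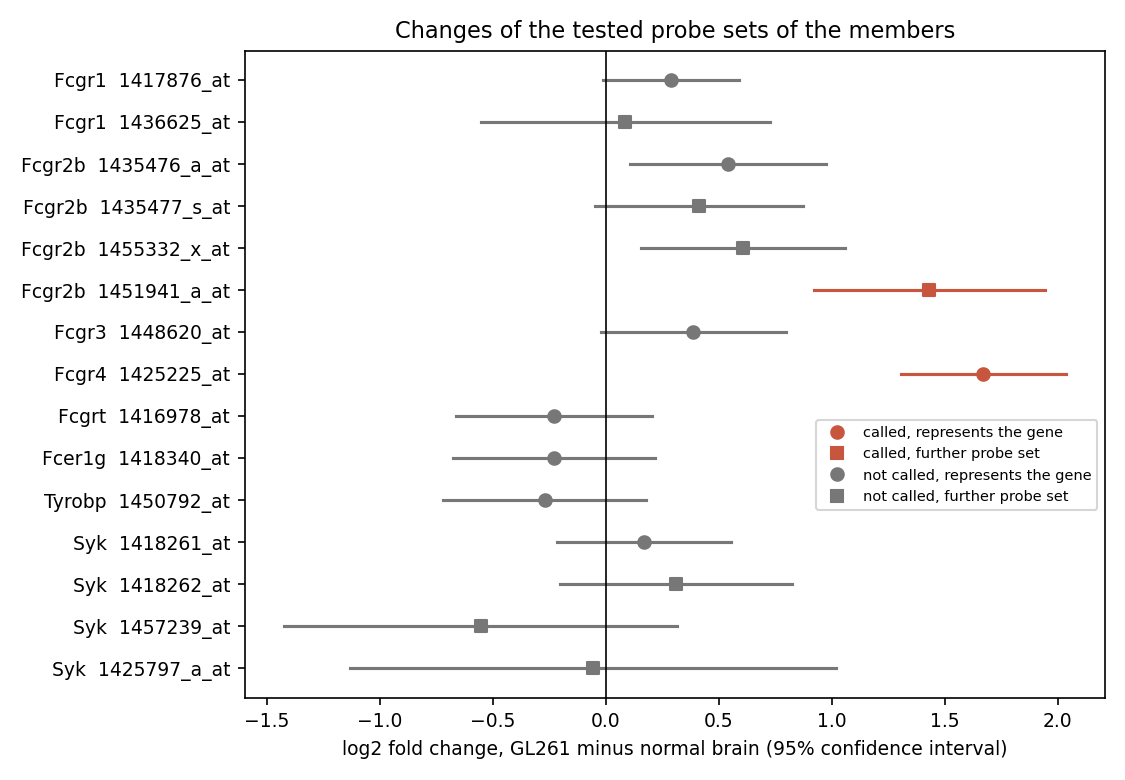
Log2 fold change of GL261 over normal brain (horizontal axis) with its 95% confidence interval for the 15 tested probe sets, from the fit over all tested probe sets. Circles represent the gene, squares are further probe sets, and orange marks the 2 that were called, 1451941_a_at of Fcgr2b and 1425225_at of Fcgr4.

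Each activating receptor was set against Fcgr2b within the same array to ask whether their changes were unequal. Fcgr4 minus Fcgr2b was -1.30, -1.34 and -1.43 in normal brain and -0.27, -0.035, -0.20 and -0.38 in GL261, as differences of log2 values. The 2 groups lay apart, and the log2 change of Fcgr4 was above that of Fcgr2b by 1.13. This did not pass 0.05 after adjustment (two-sided exact permutation p = 0.0286, the smallest possible, and 0.0857 when adjusted over the 3 pairs). Unless another pair also reached the smallest p, the adjusted p could not fall under 0.05. The adjusted test therefore could not decide whether the changes of Fcgr4 and Fcgr2b were unequal. Fcgr1 minus Fcgr2b was -0.35 ± 0.23 (SD, n = 3) in normal brain, and in GL261 it was -0.60 ± 0.33 (SD, n = 4, exact permutation p = 0.286, adjusted 0.286). Fcgr3 minus Fcgr2b was 0.30 ± 0.058 (SD, n = 3) and 0.15 ± 0.16 (SD, n = 4, exact permutation p = 0.229, adjusted 0.286). These differences compare changes, since levels of separate probe sets on one array have no common scale. Against 1451941_a_at in place of the representing Fcgr2b probe set the excess of Fcgr4 is smaller by the 0.89 given above.

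**Figure D4:**
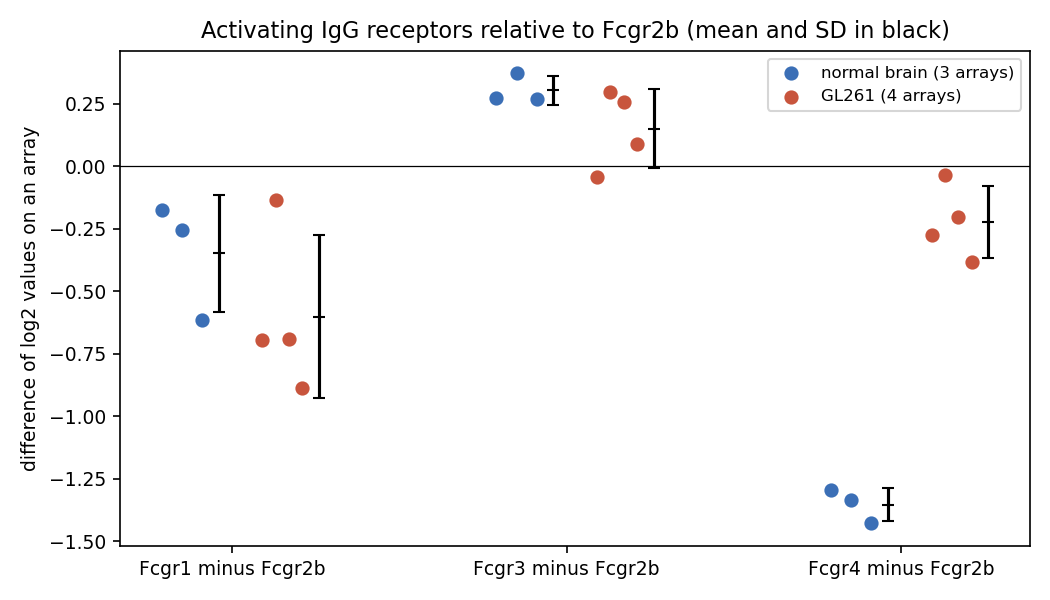
Log2 value of Fcgr1, Fcgr3 or Fcgr4 minus that of Fcgr2b on the same array (vertical axis), for 3 normal brain arrays (blue) and 4 GL261 arrays (orange), with mean and SD in black. The groups are apart for Fcgr4, at -1.43 to -1.30 against -0.38 to -0.035, and overlap for Fcgr1 and Fcgr3.

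On mouse chromosome 1 Fcgr4 lies between Fcgr2b and Fcgr3, and Fcgr1 is on chromosome 3. The 250 bases before the transcription start of these 4 IgG receptor genes are shown because Fcgr4, which was called, lies beside Fcgr2b and Fcgr3, whose representing probe sets were not. They are from RefSeq, build GRCm38.p6, read 5' to 3' on the strand of the gene, with capitals marking matches to the motifs named below. RefSeq windows were matched by symbol for Fcgr1, Fcgr2b, Fcgr3, Fcgr4, Fcgrt, Fcer1g and Syk, and of the 2 starts listed for Fcgr3 the most upstream was used.
Fcgr2b, chr1:170976072-170976321, minus strand: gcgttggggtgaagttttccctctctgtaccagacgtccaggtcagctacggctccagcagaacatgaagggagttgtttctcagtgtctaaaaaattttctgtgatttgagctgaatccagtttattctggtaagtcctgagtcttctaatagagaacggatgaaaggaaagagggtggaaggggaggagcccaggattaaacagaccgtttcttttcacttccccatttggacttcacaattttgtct
Fcgr4, chr1:171018676-171018925, plus strand: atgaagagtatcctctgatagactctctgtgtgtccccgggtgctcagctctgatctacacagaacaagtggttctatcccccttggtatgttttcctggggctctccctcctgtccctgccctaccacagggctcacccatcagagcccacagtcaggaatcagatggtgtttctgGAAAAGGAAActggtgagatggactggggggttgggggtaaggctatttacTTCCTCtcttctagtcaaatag
Fcgr3, chr1:171059404-171059653, minus strand: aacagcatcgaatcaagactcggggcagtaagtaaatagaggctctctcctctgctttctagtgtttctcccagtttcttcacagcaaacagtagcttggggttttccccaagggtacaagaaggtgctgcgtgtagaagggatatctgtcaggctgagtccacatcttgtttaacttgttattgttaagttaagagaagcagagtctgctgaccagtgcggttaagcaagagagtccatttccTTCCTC
Fcgr1, chr3:96293970-96294219, minus strand: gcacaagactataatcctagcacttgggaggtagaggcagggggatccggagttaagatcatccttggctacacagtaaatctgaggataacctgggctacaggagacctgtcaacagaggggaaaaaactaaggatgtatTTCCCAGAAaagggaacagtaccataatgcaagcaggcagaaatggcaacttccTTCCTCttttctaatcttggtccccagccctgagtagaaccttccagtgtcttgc
The letters GAGGAA, the core of sites bound by the myeloid factor PU.1, occur once in the windows of Fcgr4 (bases -22 to -17 from the start), Fcgr3 (-6 to -1) and Fcgr1 (-55 to -50), each on the reverse strand. Of all 32851 RefSeq windows of that length 23.3% hold them. A pair of GAAA blocks with 2 bases between them, found in sites of interferon regulatory factors, occurs once in the Fcgr4 window, at -73 to -64, and in 2.98% of all windows. The letters TTCNNNGAA, found in STAT sites, occur once in the Fcgr1 window, at -109 to -101, and in 7.02% of all windows. All motifs were searched on both strands. No match overlaps another in these windows, and the windows of Fcgr2b, Fcgrt, Fcer1g and Syk hold 0. A match describes letters and does not show that a factor binds.

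Fcgrt, the recycling receptor FcRn, was at 2076, 1883 and 2426 in normal brain and at 2129, 1331, 1959 and 1907 in GL261. GL261 replicate 2 was the lowest array and the groups overlapped. The log2 change was -0.23 (standard error 0.19, interval -0.65 to 0.19, adjusted p = 0.480). Its partner B2m, the light chain of FcRn and of MHC class I, had a log2 change of -0.28 (standard error 0.21, adjusted p = 0.443), which was 0.031 under quantile normalization. With replicate number as a block, which sets GL261 replicate 4 aside, B2m was called lower (-0.38, adjusted p = 0.0351, limma). Albumin (Alb), the other cargo of FcRn, did not pass the filter on low values.

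The ITAM adaptors Fcer1g and Tyrobp had overlapping groups. Fcer1g, the gamma chain that the activating IgG receptors need, was at 13600.2, 16069 and 19554 in normal brain and at 11578, 10725, 16373 and 18050.3 in GL261 (log2 change -0.23, standard error 0.21, interval -0.68 to 0.22, adjusted p = 0.523). Tyrobp was at 12588, 15463 and 18631 in normal brain and at 9887, 10707, 15456 and 16057 in GL261 (log2 change -0.27, standard error 0.21, interval -0.72 to 0.18, adjusted p = 0.444). In both genes normal brain replicate 3 was the highest array and GL261 replicates 1 and 2 were the lowest. Under quantile normalization both log2 changes turned sign, to 0.070 and 0.013, and neither was called. With replicate number as a block, which sets GL261 replicate 4 aside, Tyrobp was called lower (-0.38, adjusted p = 0.0383, limma).

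Tyrobp and Fcer1g followed each other closely across arrays. The log2 difference of Tyrobp from Fcer1g was -0.11 to -0.055 in normal brain and -0.23 to -0.0024 in GL261, and the root mean square difference of their mean-centred values was 0.070. This was not particular to the pair, since 40 other tested genes were nearer to Tyrobp than Fcer1g was. The nearest were the ribosomal protein genes Rps19 at 0.023 and Rps7 at 0.035, which are named after their values were seen. The 95% interval of the log2 change ended at 0.22 for Fcer1g and began at 1.32 for Fcgr4, the receptor that uses this chain.

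Syk, the kinase that both adaptors recruit, had 4 tested probe sets, of which limma called 0 (0 also at an unadjusted p under 0.05). The representing one, 1418261_at, was at 2332, 2254 and 1693 in normal brain and at 2158, 2715, 2238 and 2242 in GL261. Normal brain replicate 3 was the lowest and GL261 replicate 2 the highest array, and the log2 change was 0.17 (standard error 0.17, interval -0.20 to 0.53, adjusted p = 0.567). Probe set 1418262_at gave 0.31 (standard error 0.23, adjusted p = 0.477) and 1425797_a_at gave -0.057 (standard error 0.49, adjusted p = 0.963). Probe set 1457239_at was at 595 to 824 in normal brain and at 301, 902, 296 and 680.3 in GL261 replicates 1 to 4, which split the tumour arrays into a low and a high pair (log2 change -0.55, standard error 0.40, adjusted p = 0.453). The mean of the Syk probe sets had a log2 change of -0.033.

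Among receptors that pair with Tyrobp or Fcer1g, 1 of 15 tested genes was higher and 2 were lower, with a median log2 change of 0.26. For this list and those that follow, the shares over all tested genes were 5.92% called higher and 4.20% called lower. Clec4n, the lectin Dectin-2, which signals through the gamma chain, was at 2493 to 3815 in normal brain and 5372 to 8119 in GL261 and rose by 1.14 (log2 change, standard error 0.18, adjusted p = 0.00371). Siglech, a lectin of microglia and plasmacytoid dendritic cells that pairs with Tyrobp, was at 1066 to 1390.5 in normal brain and 151 to 549 in GL261 and fell by 2.00 (standard error 0.41, adjusted p = 0.0126, which was 0.0600 with one common prior variance). The lectin gene Clec4b1 fell by 2.96 (standard error 0.53, adjusted p = 0.00655). Trem2, the lipid receptor of microglia, was at 5430.3 to 6455 in normal brain and 3972 to 4653 in GL261. Its groups did not overlap, its log2 change of -0.42 was not called (standard error 0.14, adjusted p = 0.0746), with the mean of its probe sets the value was 0.012, and under quantile normalization it was -0.37 and was called lower (adjusted p = 0.0239). Without normal brain replicate 1 or 2 the list had 2 genes called higher. Of 8 tested homeostatic microglia markers 7 were lower, among them Siglech, and the part of that shift was not tested.

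Of the list of other adaptors 2 of 7, the B cell antigen receptor chains Cd79a and Cd79b, were lower. Cd79a fell by 3.64 (standard error 0.46, adjusted p = 0.00101) and Cd79b by 1.64 (standard error 0.21, adjusted p = 0.000983). Hcst, the adaptor DAP10, is counted in this list but carries no ITAM. It had a log2 change of -0.26 (standard error 0.37, adjusted p = 0.701), and 0.14 when normal brain replicate 2 was left out. The CD3 and zeta chains, which signal for the T cell receptor, were not called: the log2 change was 1.49 for Cd3g (adjusted p = 0.0950), 0.82 for Cd3d (adjusted p = 0.249), 0.47 for Cd247 (adjusted p = 0.640) and 0.38 for Cd3e (adjusted p = 0.603). These 4, named after their values were seen, are also in the list of T cell markers, of which 2 of 7 were higher. The part of T cells was not tested. With either that array or GL261 replicate 2 left out, 1 adaptor was called higher. Of the hemITAM receptors, which carry a single tyrosine motif, limma called 0 of 2, with 1 higher at an unadjusted p under 0.05: Clec7a, the beta-glucan receptor Dectin-1, had a log2 change of 0.49 (standard error 0.17, adjusted p = 0.0921) and was called without GL261 replicate 2 (adjusted p = 0.0473) and under quantile normalization (0.64, adjusted p = 0.000732).

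Src-family kinases and their regulators held 2 of 9 tested genes called higher and 1 lower (median log2 change 0.22). The kinase gene Fgr rose by 0.76 (standard error 0.22, adjusted p = 0.0498) and Fyn by 0.67 (standard error 0.19, adjusted p = 0.0407), while the B cell kinase Blk fell by 3.43 (standard error 0.57, adjusted p = 0.00415). Blk was at 348 to 442 in normal brain and 12.8 to 59.7 in GL261, and was above background on 5 of the 7 arrays. Its log2 change was -3.72 to -2.38 over the alternatives. Fgr lost its call in 13 and Fyn in 11 of 17 alternatives, at adjusted p up to 0.134 and 0.127. Higher calls in this list numbered 0 without normal brain replicate 2 or any 1 GL261 array and 1 without normal brain replicate 3. The phosphatase gene Ptprc (CD45), which activates Src-family kinases, had a log2 change of -0.36 (standard error 0.15, adjusted p = 0.163), and was called at -0.57 with the mean of its probe sets (adjusted p = 0.0488).

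Of the signalling proteins below Syk, 2 of 29 tested genes were higher and 4 lower, with a median log2 change of 0.064. Pla2g4a, the phospholipase that frees arachidonic acid, rose by 1.18 (standard error 0.29, adjusted p = 0.0274) and Pik3r1, a regulatory subunit of PI3 kinase, by 0.79 (standard error 0.18, adjusted p = 0.0168). Rasgrp3, a Ras activator, fell by 1.91 (standard error 0.22, adjusted p = 0.000503), the PI3 kinase subunit gene Pik3cg fell by 0.97 (standard error 0.19, adjusted p = 0.00935) and the exchange factor gene Vav2 fell by 0.72 (standard error 0.15, adjusted p = 0.0131). Nfatc2 was the fourth gene called lower and is named after its values were seen. Plcg2, the phospholipase that Syk and Btk activate, had a log2 change of -0.36 (standard error 0.16, adjusted p = 0.185) and Btk one of 0.39 (standard error 0.26, adjusted p = 0.376), both uncalled. Card9 was not analysed here. With the mean of probe sets Pik3cg was at -0.52 (adjusted p = 0.201), Vav2 at -0.41 (adjusted p = 0.494) and Pik3r1 at 0.45 (adjusted p = 0.154), and 0 of these 3 kept its call. One common prior variance also ended the calls of these 3 and of Pla2g4a (adjusted p 0.0606 to 0.0934), and median centring those of Vav2 and Pik3r1 (0.107 and 0.0800). Without 1 array, Pla2g4a lost its call for normal brain replicate 3 and GL261 replicates 1 and 3 (adjusted p up to 0.0897), Pik3r1 for GL261 replicates 3 and 4 (up to 0.0591), and Btk was called without normal brain replicate 1 (0.0480). Higher calls numbered 0 without GL261 replicate 3, 1 without GL261 replicate 1, GL261 replicate 4 or normal brain replicate 3, and 4 when normal brain replicate 1 was left out. Among actin and phagocytic cup proteins 1 of 12, the myosin gene Myo1e, was higher, by 1.49 (standard error 0.31, adjusted p = 0.0129), and 0 were without GL261 replicate 3 (adjusted p of Myo1e 0.0548) or with the mean of probe sets (1.22, adjusted p = 0.0599). Without GL261 replicate 2, 1 gene of this list was called lower.

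Of the inhibitory receptors with ITIMs, 4 of 17 tested genes were higher and 2 lower (median log2 change 0.36), beside 5.92% and 4.20% of all tested genes. Cd300lf was at 365 to 602 in normal brain and 1053 to 1749.8 in GL261 and rose by 1.64 (standard error 0.25, adjusted p = 0.00284). Pilra was at 1206 to 1538 and 3122 to 3499 and rose by 1.23 (standard error 0.15, adjusted p = 0.000839). These 2 kept their calls in all 17 alternatives. Cd72 rose by 0.62 (standard error 0.18, adjusted p = 0.0455) and lost its call in 11 alternatives, among them all fits without 1 array except that without GL261 replicate 2 (adjusted p 0.0527 to 0.162). The fourth, Cd300a, is named after its values were seen (0.46, standard error 0.13, adjusted p = 0.0492). Siglecg, a lectin of B cells, fell by 1.68 (standard error 0.40, adjusted p = 0.0229), and Siglece fell by 0.59 (standard error 0.17, adjusted p = 0.0477). Siglece was called without normal brain replicate 2 and lost its call without any other single array (adjusted p 0.0708 to 0.121), and Siglecg lost its call without normal brain replicate 1 or 2 or GL261 replicate 1, 3 or 4 (0.0534 to 0.0635). Sirpa, the receptor for CD47, had a log2 change of -0.19 (standard error 0.17, adjusted p = 0.511), which was 0.061 under quantile normalization and 0.37 with the mean of its probe sets. Higher calls numbered 2 without GL261 replicate 1, 3 or 4 or normal brain replicate 1 or 2, and lower calls 0 without GL261 replicate 1, 3 or 4 or normal brain replicate 1, and 1 when normal brain replicate 2 or 3 was left out.

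Of the phosphatases and ubiquitin ligases that limit the signal, limma called 0 of 13 tested genes in either direction (median log2 change 0.17). At an unadjusted p under 0.05, 1 was lower. Ptpn6, which encodes the phosphatase SHP-1, had a log2 change of -0.023 (standard error 0.16, adjusted p = 0.950), and its sign turned without GL261 replicate 1, 2 or 4 or normal brain replicate 2. Inpp5d, which encodes SHIP-1, the phosphatase recruited by Fcgr2b, had one of 0.12 (standard error 0.13, adjusted p = 0.616). The smallest p in the list was that of Tnfaip3, also known as A20 (-0.46, standard error 0.16, adjusted p = 0.0907), and it was called without GL261 replicate 4 (adjusted p = 0.0478) and under quantile normalization (-0.35, adjusted p = 0.0366).

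The other Fc receptors were lower where they were called. Of 8 tested genes 4 were lower and 0 higher, beside 4.20% of all tested genes called lower, with a median log2 change of -1.63. Fcmr, the IgM receptor, was at 345 to 569 in normal brain and 4.84 to 115 in GL261 and fell by 3.62 (standard error 0.71, adjusted p = 0.0098). Fcer2a, the low-affinity IgE receptor CD23, fell by 2.50 (standard error 0.62, adjusted p = 0.0268) and lost its call in 8 of 15 alternatives, 4 of them fits without 1 array (any normal brain array or GL261 replicate 3, adjusted p 0.0529 to 0.0630). Fcer2a was at 122 to 146 in normal brain and 1.85 to 31.7 in GL261, and was above background on 6 of the 7 arrays. Its log2 change was -2.97 to -1.34 over the alternatives. Fcrl1, an Fc receptor-like protein of B cells, fell by 2.29 (standard error 0.40, adjusted p = 0.00571), and with the mean of its probe sets it was at -1.59 and was not called (adjusted p = 0.0649). Fcrls, an Fc receptor-like gene that also stands in the list of homeostatic microglia markers and is named after its values were seen, fell by 1.15 (standard error 0.22, adjusted p = 0.00909). The count of 4 lower was 2 with the filter at the 60th percentile, with one common prior variance and with the mean of probe sets. Of 4 tested immunoglobulin genes, 3 were lower, none of them an IgG gene: Igha fell by 1.91 (standard error 0.44, adjusted p = 0.0195), the joining chain gene Jchain by a log2 change of -1.11 (standard error 0.22, adjusted p = 0.00913) and Ighm by one of -0.81 (standard error 0.22, adjusted p = 0.0388). The IgG gene tested, Ighg3, named after its values were seen, was not called (log2 change -1.11, standard error 0.61, adjusted p = 0.278). Ighg1, Ighg2b and Ighg2c were not analysed here. Igha was at 4541 in GL261 replicate 2 and 972 to 1089 in the other tumour arrays. Igha lost its call without normal brain replicate 3 or GL261 replicate 1, 3 or 4 (adjusted p 0.0536 to 0.0632), and Ighm without any single array except normal brain replicate 2 (0.0592 to 0.115). The immunoglobulin count was 1 without GL261 replicate 1, 3 or 4 or normal brain replicate 3, and 0 with one common prior variance. Beside these stand the 7 of 8 B and plasma cell markers that were lower, a list that shares Cd79a, Cd79b, Blk, Fcer2a, Ighm and Jchain with the lists above. Their part in these decreases was not tested.

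**Figure D5:**
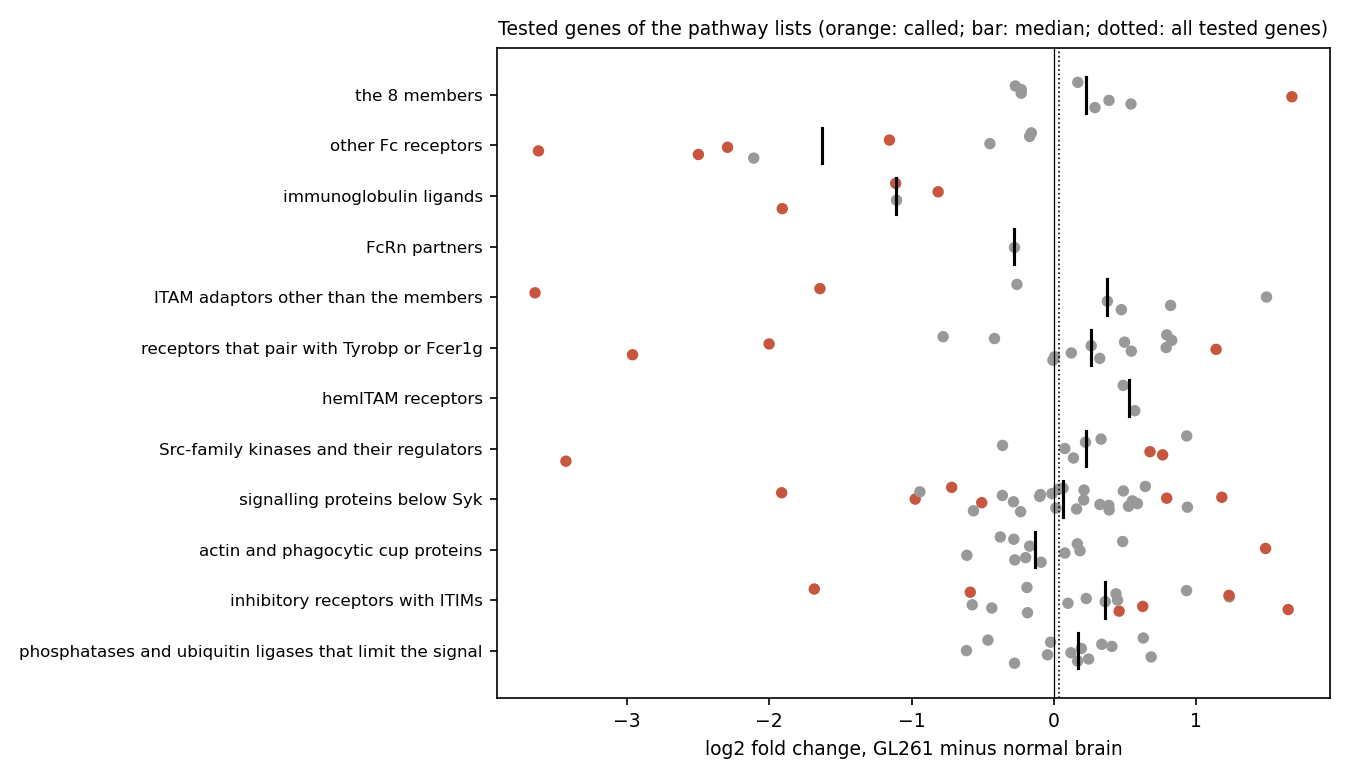
Log2 fold change of GL261 over normal brain (horizontal axis) for the tested genes of each list (rows), with called genes in orange, list medians as bars and the median of all tested genes, 0.038, as a dotted line. Most lists have medians between -0.28 and 0.53, and the other Fc receptors and the immunoglobulin genes lie lower, at -1.63 and -1.11.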

How the data were processed

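RNA of 7 samples was labelled and hybridised to Affymetrix mouse arrays. The authors deposited 1 linear signal intensity for each probe set, made with MAS5 per the submitters' processing notes, in a version not given in the sources used here. The mean signal trimmed by 2% at each end was 500.0 on every array, and no further scaling was applied. Probe sets were named through the platform annotation, and RefSeq changed 0 symbols. Values were taken as log2(signal + 6), which shrinks fold changes at low signal. Each gene took its probe set of highest mean and was tested where that mean exceeded 4.93, the 40th percentile over non-control probe sets. Groups were compared by limma 3.58.1 in R 4.3.3 with variances following the mean, two-sided, with Benjamini-Hochberg adjustment over 12125 genes, or over 27022 probe sets where probe sets are compared. Calls mean an adjusted p under 0.05. For RNA integrity and the receptor pairs, two-sided exact permutation tests over the arrays were used.

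Named were every member and its probe sets, Adgre1, Csf1r, Cd68, Ptprc, Trem2, Hcst, Btk, Plcg2, Ptpn6, Inpp5d, Sirpa and B2m, from each list up to 3 called genes in the direction with most calls and up to 2 in the other by size of change (the smallest p where none was called), and the 2 genes most like each called member, clone and predicted names left out. Members and lists were chosen with earlier results of these data known. Alternatives changed the pseudocount, filter, normalization, variance model, array weights, probe set rule and replicate block, or left out 1 array. No pairing by the replicate numbers of the labels was seen: deviations of same-numbered arrays correlated at 0.079, -0.0075 and 0.031 over genes. Those of arrays with unlike numbers correlated at -0.068 to 0.055. Such values cannot show that the arrays were unpaired. Figures were drawn with matplotlib 3.10.9. The number of arrays limits precision.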

Additional observations from a re-analysis of the deposited data

Results flagged for a closer look

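In 59 sets of 4 GL261 values, 1 array was looked for that stood apart, by the ratio of its gap from the nearest array to the whole range. This rule marks about 1 in 20 sets by chance, and 7 were marked. Among the Fc receptor and ITAM genes they were probe set 1436625_at of Fcgr1, low in GL261 replicate 4 (ratio 0.866, log2 values 9.54 to 10.82), and probe set 1418261_at of Syk, high in GL261 replicate 2 (ratio 0.833, 11.08 to 11.41). Igha was high (ratio 0.927) and Ighm low (ratio 0.893) in GL261 replicate 2, and Cd300lf was low there (ratio 0.838). Fcer2a (ratio 0.913) and Pik3cg (ratio 0.962) were low in GL261 replicate 4.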

How the results depend on the processing

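Of the 8 genes, Fcgr4 kept its direction and call under all 17 alternatives (adjusted p 7.72e-06 to 0.0113), and Fcgrt, uncalled, kept its sign. Quantile normalization changed most for the set: 4 members and 7 of their probe sets were called higher, with log2 changes of 0.40 for Fcgr1 (adjusted p = 0.0359), 0.72 for Fcgr2b (adjusted p = 0.00454) and 0.61 for Fcgr3 (adjusted p = 0.000461), while Fcer1g, at 0.070, and Tyrobp, at 0.013, turned sign uncalled, as did Sirpa (0.061) and B2m (0.031); Trem2 was called lower (-0.37, adjusted p = 0.0239); 1 hemITAM receptor and 1 Src-family gene were higher, and 1 actin and 1 phosphatase gene lower. With the replicate block, which sets GL261 replicate 4 aside, Tyrobp was called lower (-0.38, adjusted p = 0.0383), so 1 member was; lower calls were 1 for FcRn partners, 2 for Src-family, 2 for actin, 1 for phosphatase and 0 for ITIM genes, 0 Src-family genes were higher, Cd68 was -0.0098 and Ptpn6 0.048. The block put 49.9% of its calls on the higher side, against 58.5%. With one common prior variance 455 genes were called (282 higher, 173 lower) and 1 member probe set was higher; lower calls were 2 for other Fc receptors, 0 for immunoglobulins, 1 for pairing receptors, 1 below Syk and 1 with ITIMs, and higher calls 0 for Src-family, 0 below Syk and 2 with ITIMs. Median centring gave 809 genes (304 lower), with 0 Src-family, 1 below-Syk and 2 ITIM genes higher and 2 below-Syk and 1 ITIM genes lower. The mean of probe sets gave 317 genes lower, Syk at -0.033, Trem2 at 0.012 and Sirpa at 0.37, lower calls of 2 (other Fc receptors), 2 (Src-family), 1 (below Syk) and 1 (ITIM), and higher calls of 1 (Src-family), 0 (actin) and 2 (ITIM). Array weights and no filter each gave 0 Src-family and 2 ITIM genes higher and 1 ITIM gene lower, and weights put Ptpn6 at 0.011. A filter at the 60th percentile gave 2 other Fc receptors and 0 Src-family genes lower, and a pseudocount of 1 gave 1 Src-family gene higher and 1 ITIM gene lower. Without 1 array, genes called ranged from 542 to 1171 (305 to 761 higher, 237 to 445 lower), members higher from 1 to 2, member probe sets higher from 2 to 4 and Fcgr2b from 0.44 to 0.72. Higher calls ranged from 0 to 1 (other adaptors, hemITAM, actin), 1 to 2 (pairing receptors), 0 to 2 (Src-family), 0 to 4 (below Syk) and 2 to 3 (ITIM), and lower calls from 1 to 3 (immunoglobulins), 0 to 1 (actin, phosphatases) and 0 to 2 (ITIM). Signs turned, uncalled, for Cd68 (-0.017 to 0.11), Hcst (-0.65 to 0.14), Ptpn6 (-0.15 to 0.048), probe set 1436625_at of Fcgr1 (-0.035 to 0.39) and 1425797_a_at of Syk (-0.26 to 0.28). Of 27 other named genes that were called, 16 lost the call under some alternative. The cause of these changes was not tested.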
